A study of Mus musculus with 8 samples.

Results

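The BCL2 family decides whether the outer membrane of the mitochondrion stays intact in a stressed cell. 10 of its genes, chosen by symbol, were followed in RNA-seq of mouse testis, out of 17121 genes in the table. They were the BH3-only genes Pmaip1, Bbc3, Bid and Bcl2l11, the effector genes Bax, Bak1 and Bok, and the protective genes Bcl2, Bcl2l1 and Mcl1. All 10 were present and all 10 passed the filter on low values, which kept 17066 genes. The study compared 4 testis libraries with the genotype label N6amt1-SKO (called SKO here) with 4 testis libraries labelled CTL. N6AMT1 is a methyltransferase that partners with TRMT112, and the series asks how it acts in the making of sperm. The labels do not spell out SKO, and they give no strain, age, Cre driver or deleted exon. Whether each library is a different animal is not stated, so the p-values speak of the spread among libraries, some of which may be technical.

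In the mitochondrial pathway of apoptosis, BH3-only proteins sense damage and bind the protective members through a short helix called the BH3 domain. Once the protective members are occupied, or once BAX and BAK are activated directly, these effectors form pores that release cytochrome c, which switches on caspases. In the testis this pathway removes surplus and damaged germ cells, and male mice that lack Bax are sterile, as are those that lack the protective gene Bcl2l2.

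5 of the 7 pro-apoptotic genes rose in SKO testes: Pmaip1 2.73-fold, Bax 2.28-fold, Bid 1.96-fold, Bok 1.83-fold and Bcl2l11 1.5-fold. None of the 3 protective genes passed the test, with log2 fold changes of 0.69 for Bcl2, -0.53 for Bcl2l1 and -0.01 for Mcl1. In bulk tissue, fewer cells of a type and less RNA per cell cannot be told apart. The threshold was a limma p of 0.05 after Benjamini-Hochberg adjustment over all genes tested. Thus 5 of 10 members rose, where 11.9% of all genes tested rose, with 0 of 10 fallen, where 7.93% of all genes fell and 19.9% changed in either direction (1 of 10 was lower at an unadjusted limma p below 0.05). The median log2 fold change was 0.87 over the pro-apoptotic members, -0.01 over the protective members and 0.04 over all genes. Without SKO 3 no gene of the table passed (0 genes by limma, the smallest adjusted p being 0.0569). In that fit 7 of the 10 members had an unadjusted limma p below 0.05, as with all 8 libraries. Over all genes, 4784 had such a p without SKO 3, and 6321 of 17066 had it with all 8 libraries. The count of risen members was 2 without SKO 1, 1 without SKO 2, 3 without CTL 2, 2 without CTL 3 and 3 without CTL 4. In the same fits 812, 829, 1108, 688 and 1899 genes in all rose, against 2038 with all 8 libraries.

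**Figure D1:**
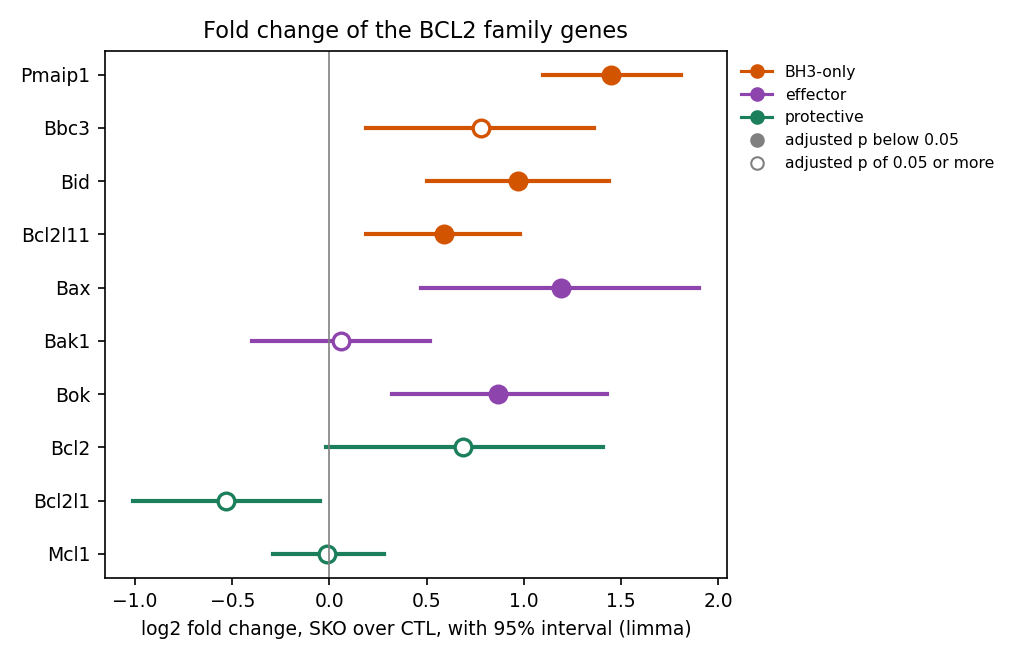
Log2 fold change of each BCL2 family gene, SKO over CTL (x axis), with its 95% limma interval, coloured by role. Filled points passed the adjusted threshold: 5 pro-apoptotic genes lie to the right of 0, from 0.59 for Bcl2l11 to 1.45 for Pmaip1, and the 3 protective genes are open.

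The libraries differed in ways that touch these results. Each library's deposited values were its read counts times a factor. The reads behind them came to about 40.6 to 65.6 M (M for 10 to the power of 6) in SKO libraries and 57.4 to 257.7 M in CTL libraries, with CTL 1 and CTL 2 by far the deepest. The read numbers of CTL 1 and CTL 2 are less certain, since their factors lie below 1. 18S ribosomal RNA took 0.97% of the values in SKO 4 and 0.72% and 0.73% in CTL 4 and CTL 3, against 0.17% to 0.27% in the other 5 libraries, so members are also given within these 2 sets. Mitochondrial transcripts took 2.11% to 4.53% of the values in SKO libraries and 1.13% to 1.99% in CTL libraries. Among called genes, 60.1% were risen under TMM scaling, against 49.2% under median-ratio, 67.4% under upper quartile and 91.5% under library total scaling. Library totals moved the median over all genes to 0.33 (log2), so directions here are relative to the bulk of genes. N6amt1 itself had 586, 557, 561 and 625 in SKO 1 to 4, against 475, 433, 629 and 514 in CTL 1 to 4 (limma adjusted p = 0.437). This value is summed over the whole gene and does not check the labels, since a deleted part is not named. The tissue label is testis although the protocol text speaks of heart ventricles. The spermatocyte gene Piwil1 had 29479 to 39458 in SKO and 52677 to 62532 in CTL libraries.

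The feature that unites the family is the BH3 core, shown here to make plain what the 3 roles share. Each line gives the bases that encode it in a GENCODE M21 reference transcript, 5′ to 3′ on the gene's strand, with GRCm38 coordinates. Capitals mark the codon of the conserved leucine and the codons of the small residue and aspartate that follow it.
Bbc3 (BH3-only, chr7:16313773-16313790, + strand): CTGcggcggatgGCGGAC
Bid (BH3-only, chr6:120897298-120897315, - strand): CTCgcccaaataGGCGAT
Bcl2l11 (BH3-only, chr2:128147150-128147167, + strand): CTGcggcggatcGGAGAC
Bax (effector, chr7:45466006-45466023, - strand): CTCcggcgaattGGAGAT
Bak1 (effector, chr17:27022540-27022557, - strand): CTTgctctcatcGGAGAT
Bok (effector, split by an intron between chr1:93686657 and 93689161, + strand): CTGctgcgcttgGGAGAT
Bcl2 (protective, chr1:106712584-106712601, - strand): CTCcgccgggctGGGGAT
Bcl2l1 (protective, chr2:152829706-152829723, - strand): CTGagagaggcaGGCGAT
Mcl1 (protective, chr3:95659436-95659453, + strand): CTGcggcgcgtgGGCGAC
In each of these 9 transcripts the pattern occurred 1 time. It occurred 2 times in the reference transcript of Pmaip1, whose sequence is not shown. Members of all 3 roles thus carried the pattern.

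Among the BH3-only genes, the sensors of damage, Pmaip1 and Bid changed most. Pmaip1 encodes NOXA, a p53-inducible protein that binds MCL1, and lies on chromosome 18 (66458533 to 66465565, GRCm38). Its normalised values, which are deposited values scaled to a common level, were 1149, 1116, 1017 and 1122 in SKO 1 to 4, against 477, 378, 415 and 339 in CTL 1 to 4. The groups stood far apart, with the lowest SKO library above 2 times the highest CTL library, and each group was tight. Means were 1101 ± 57.7 in SKO and 402 ± 58.6 in CTL (SD, n = 4 each), a log2 fold change of 1.45 (standard error 0.16; limma adjusted p = 0.0123). Only 0.65% of all genes tested had a larger log2 fold change. The log2 fold change was 1.35 within the 5 libraries with less 18S (limma adjusted p = 0.0165) and 1.58 within the 3 with more, which hold a single SKO library (limma adjusted p = 0.0863). Without SKO 3 the log2 fold change was 1.49 and the adjusted p 0.0569.

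Bid encodes the protein that caspase-8 cleaves to link death receptors to the mitochondrion (chromosome 6, 120891930 to 120916853). It had 1021, 1246, 1191 and 1028 in SKO 1 to 4, against 707, 651, 377 and 600 in CTL 1 to 4. All SKO libraries lay above all CTL libraries, and CTL 3 was the lowest of all. The means of 1122 ± 114 in SKO and 584 ± 144 in CTL (SD, n = 4 each) gave a log2 fold change of 0.97 (standard error 0.21; limma adjusted p = 0.0179). Leaving out SKO 2 or SKO 3 ended the call, at a limma adjusted p of 0.0513 and 0.0663. The log2 fold change was 0.75 within the libraries with less 18S (limma adjusted p = 0.0199) and 1.12 within those with more (limma adjusted p = 0.222). Of the exon bases of Bid, 17.7% overlap Bcl2l13 on the opposite strand, and the kit does not mark strand. Bcl2l13 had means of 5377 ± 474 in SKO and 6373 ± 662 in CTL (SD, n = 4 each; limma adjusted p = 0.205).

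Bcl2l11 encodes BIM, a BH3-only protein that binds all protective members (chromosome 2, 128126038 to 128162547). Values were 2164, 2242, 2647 and 1723 in SKO 1 to 4, against 1605, 1610, 1144 and 1462 in CTL 1 to 4. The groups did not overlap, although SKO 4 came close to CTL 1 and CTL 2. Its log2 fold change was 0.59 (standard error 0.18; limma adjusted p = 0.0447), the weakest of the 5 calls. It was lost without any 1 library except SKO 4: limma adjusted p-values were 0.0949, 0.103 and 0.134 without SKO 1, 2 and 3, and 0.0725, 0.0711, 0.132 and 0.0671 without CTL 1, 2, 3 and 4. Median-ratio factors also ended it (limma adjusted p = 0.0623). Within the libraries with less 18S the log2 fold change was 0.54 (limma adjusted p = 0.029), and within those with more it was 0.43 and did not pass (limma adjusted p = 0.562).

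Bbc3 encodes PUMA, a p53-inducible protein that binds all protective members (chromosome 7, 16308393 to 16318205). It had 382, 265, 288 and 374 in SKO 1 to 4, against 238, 233, 176 and 124 in CTL 1 to 4. The groups did not overlap, but the gap between SKO 2 and CTL 1 was small beside the spread within each group. Means were 327 ± 59.2 in SKO and 193 ± 53.6 in CTL (SD, n = 4 each). The log2 fold change of 0.78 (95% interval 0.19 to 1.36) did not pass, at a limma adjusted p of 0.0623. It passed as higher in SKO with library totals (limma adjusted p = 0.0211), without CTL 1 and CTL 2 (0.0354) and with a correction for length and GC content (0.04). The difference was 0.38 within the libraries with less 18S and 1.32 within those with more. The lowest libraries rested on few reads, about 61 in CTL 4 and 102 in CTL 3.

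The effector genes, whose proteins make the pores, did not move as one. Bax (chromosome 7, 45461697 to 45466898) had 1447, 994, 1146 and 907 in SKO 1 to 4, against 800, 612, 414 and 267 in CTL 1 to 4. Every SKO library was above every CTL library, while CTL libraries differed among themselves about as much as the groups did. The means of 1123 ± 237 in SKO and 523 ± 233 in CTL (SD, n = 4 each) gave a log2 fold change of 1.19 (standard error 0.32; limma adjusted p = 0.032). Adjusted p-values were 0.082, 0.0669 and 0.0906 without SKO 1, 2 and 3 and 0.0914 without CTL 3 (limma), with log2 fold changes of 1.06 to 1.24. The log2 fold change was 0.75 within the libraries with less 18S (limma adjusted p = 0.0413) and 1.45 within those with more (limma adjusted p = 0.139). An overlapping same-strand gene of GENCODE, Gm45808, which is not in the table analysed here, covers 12.2% of the exon bases of Bax.

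Bok, an effector relative first described in the ovary (chromosome 1, 93685660 to 93695764), had 1299, 1325, 1376 and 781 in SKO 1 to 4, against 880, 688, 545 and 489 in CTL 1 to 4. 3 SKO libraries were close together and above all CTL libraries, and SKO 4 lay among the CTL libraries. Its log2 fold change was 0.87 (standard error 0.25; limma adjusted p = 0.0362). The call was lost in 6 of the 8 fits that leave out 1 library. The limma adjusted p-values were 0.0887, 0.0957 and 0.111 without SKO 1, 2 and 3 and 0.0594, 0.101 and 0.0665 without CTL 2, 3 and 4. The 18S sets gave log2 fold changes of 0.77 with less 18S (limma adjusted p = 0.0204) and 0.61 with more, where it did not pass (limma adjusted p = 0.464).

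Bak1, the other main pore former (chromosome 17, 27019810 to 27029009), had 919, 863, 1032 and 975 in SKO 1 to 4, against 1143, 949, 1018 and 608 in CTL 1 to 4. The SKO values lay inside the CTL range. The difference was 0.06 on the log2 scale, with a 95% interval of -0.40 to 0.52 (limma adjusted p = 0.861). It was -0.16 within the libraries with less 18S and 0.32 within those with more. Of its exon bases 25.5% overlap Ggnbp1 on the opposite strand, which had 157, 196, 310 and 527 in SKO 1 to 4, against 258, 230, 464 and 471 in CTL 1 to 4. The median log2 fold change of the 3 effectors was 0.87.

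**Figure D2:**
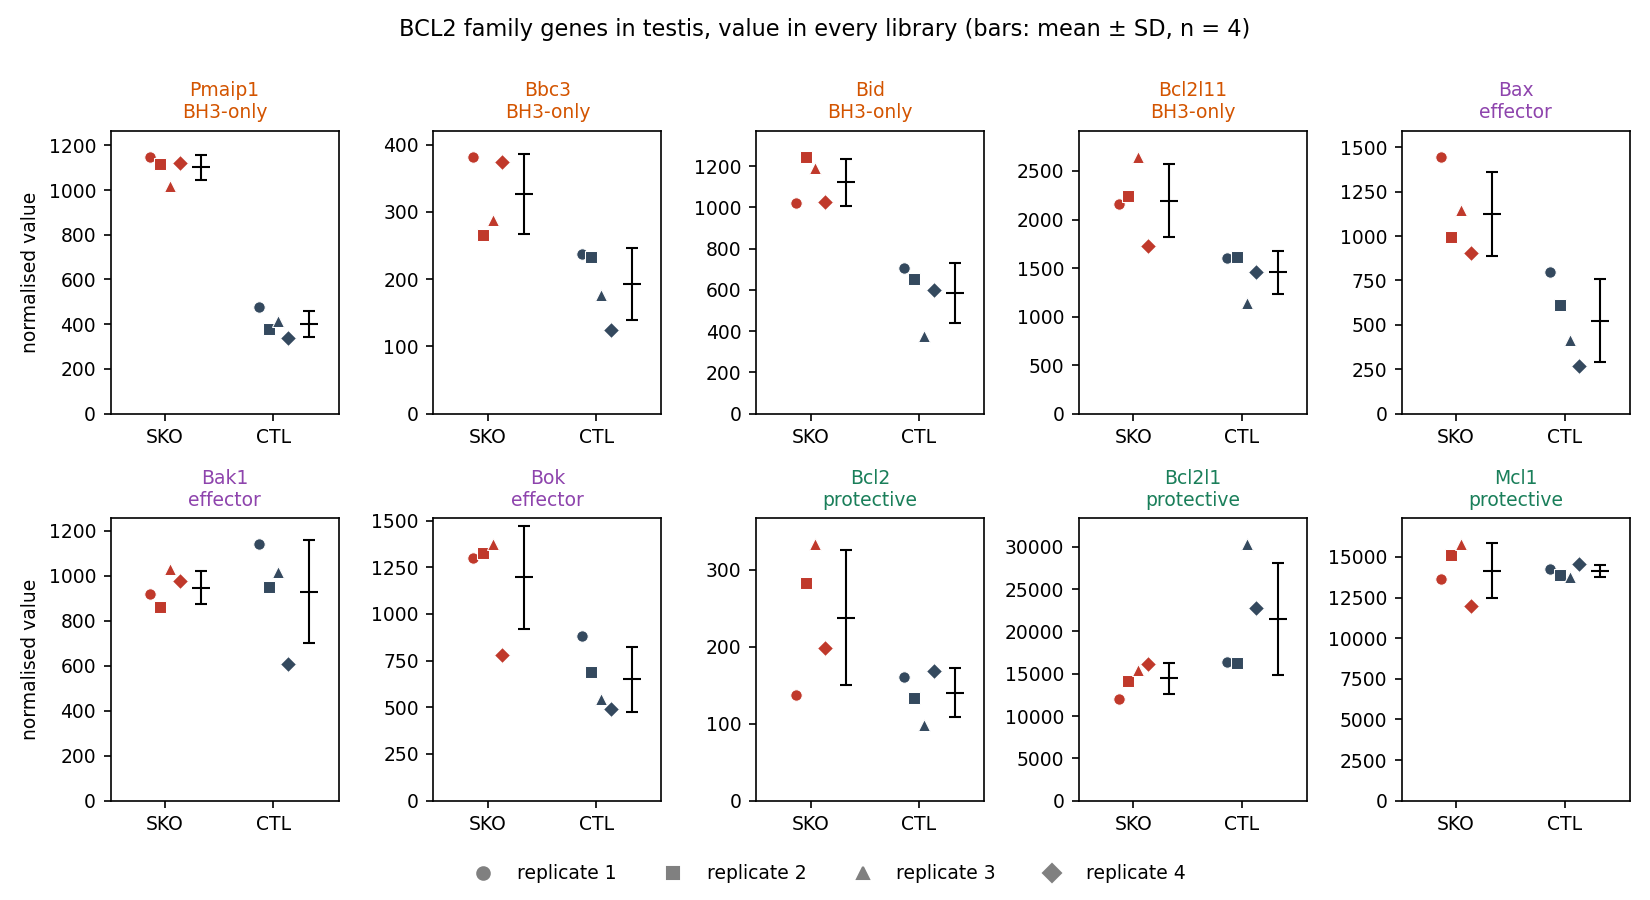
Normalised value (y axis, linear from 0) of each BCL2 family gene in every library, SKO left and CTL right, with marker shapes for replicates and bars for mean ± SD (n = 4). The groups stand apart in Pmaip1, Bbc3, Bid, Bcl2l11 and Bax, where SKO is higher, and in Bcl2l1, where SKO is lower.

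The protective genes showed no call in either direction, at an adjusted p of 0.102 or more. Bcl2l1, which encodes BCL-XL (chromosome 2, 152780668 to 152831728), had 12016, 14163, 15455 and 16146 in SKO 1 to 4, against 16379, 16326, 30369 and 22813 in CTL 1 to 4. All SKO libraries lay below all CTL libraries, by a narrow margin for CTL 1 and CTL 2 and a wide one for CTL 3 and CTL 4. On the log2 scale SKO differed by -0.53, with a 95% interval of -1.01 to -0.05 (limma adjusted p = 0.102). It was -0.25 within the libraries with less 18S and -0.69 within those with more. Without CTL 1 and CTL 2, the 2 deepest libraries, Bcl2l1 passed as lower (log2 fold change -0.92, limma adjusted p = 0.00863).

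Mcl1, whose short-lived product is the main partner of NOXA (chromosome 3, 95658788 to 95663176), had 13664, 15125, 15818 and 12005 in SKO 1 to 4, against 14283, 13911, 13783 and 14593 in CTL 1 to 4. The SKO libraries lay on both sides of a narrow CTL range. On the log2 scale the difference was -0.01, with a 95% interval of -0.29 to 0.28 (limma adjusted p = 0.977), and its sign changed to 0.28 with library totals. It was 0.07 within the libraries with less 18S and -0.22 within those with more.

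Bcl2, the founding member (chromosome 1, 106538178 to 106714274), had 137, 283, 334 and 198 in SKO 1 to 4, against 161, 134, 98.4 and 168 in CTL 1 to 4. SKO 2, 3 and 4 lay above all CTL libraries and SKO 1 within them. Its log2 fold change of 0.69 (95% interval -0.02 to 1.41) did not pass (limma adjusted p = 0.145). It was 0.66 within the libraries with less 18S and 0.62 within those with more. About 57 to 401 reads lay behind each CTL value, less certainly for CTL 1 and CTL 2, and 85 to 218 behind each SKO value.

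Groups did not overlap, with SKO higher, for 5 of the 10 members (15.6% of all genes), and with SKO lower for 1 of 10 (10.6% of all genes).

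Levels of the genes can be compared roughly once divided by exon length, taken here as all annotated exon bases of a gene. Which transcripts these libraries hold was not examined, so the order of levels and the shares below are approximate. Mcl1 and Bcl2l1 were the most abundant members in both groups, at 4140 and 3150 normalised units per kilobase in SKO and 4140 and 4680 in CTL libraries on average. Next in mean level per kilobase came Bax (713), Bok (650), Pmaip1 (403), Bak1 (394), Bid (316), Bcl2l11 (273) and Bbc3 (154) in SKO libraries. In CTL libraries the order was Bak1 (386), Bok (354), Bax (332), Bcl2l11 (181), Bid (164), Pmaip1 (147) and Bbc3 (90.8), also as mean levels per kilobase. Bcl2 was the least abundant member in both groups (26 in SKO, 15.3 in CTL per kilobase). Neighbours overlapped in SKO libraries: Bax spanned 575 to 918 and Bok 425 to 748 per kilobase, and Pmaip1 (372 to 420) overlapped Bak1 (358 to 429). In CTL libraries Pmaip1, at 124 to 175 per kilobase, lay below Bak1 at 253 to 475. The protective genes together made up 67.7%, 72.4%, 72.3% and 73.9% of the summed per-kilobase level of the 10 members in SKO 1 to 4, against 78.4%, 81%, 87.9% and 88.3% in CTL 1 to 4. Every SKO library thus had a smaller protective share than every CTL library, with means of 71.6% ± 2.67 in SKO and 83.9% ± 5 in CTL (SD, n = 4 each). The protective gene Bcl2l2 is not among the 10 members and is not in this share.

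Set against each other within a library, the 7 pro-apoptotic members gained on the 3 protective members as a group. These 3 leave out the protective gene Bcl2l2, which rose (log2 fold change 0.90, limma adjusted p = 0.0129). The mean log2 value of the 7 pro-apoptotic members minus that of the 3 protective members was -1.40, -1.99, -2.03 and -1.89 in SKO 1 to 4, against -2.21, -2.33, -2.81 and -3.13 in CTL 1 to 4. No SKO library overlapped a CTL library, and SKO 1 and CTL 4 were the extremes. The group means were -1.83 ± 0.29 in SKO and -2.62 ± 0.43 in CTL (SD, n = 4 each), a difference of 0.79 on the log2 scale. The pro-apoptotic mean was higher in SKO by 0.84 and the protective mean by 0.05, and 0.79 is the first less the second. The 0.05 averages unlike changes, 0.69 for the sparse Bcl2, -0.53 for Bcl2l1 and -0.01 for Mcl1. The difference was 0.46 within the libraries with less 18S and 1.08 within those with more, 1.14 without CTL 1 and CTL 2 together, and 0.62 to 0.93 over the fits that leave out 1 library. These values describe genes chosen with earlier results known and carry no test. CTL 3 and CTL 4, both with more 18S, had the lowest differences, and SKO 4, also with more 18S, lay near SKO 2 and SKO 3. The part of the 18S share in these differences was not tested.

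Ratios of single pairs, which do not depend on the scaling of a library, showed where the shift lay. Pmaip1 over Mcl1, the NOXA pair, was 0.0841, 0.0738, 0.0643 and 0.0934 in SKO 1 to 4, against 0.0334, 0.0272, 0.0301 and 0.0232 in CTL 1 to 4. The mean ratio was 2.77 times as high in SKO as in CTL, and the groups were well apart. Bax over Bcl2l1 was 0.12, 0.0702, 0.0742 and 0.0562 in SKO 1 to 4, against 0.0488, 0.0375, 0.0136 and 0.0117 in CTL 1 to 4. These groups were also separate, with CTL 1 just under SKO 4. The often quoted ratio of Bax over Bcl2 did overlap, at 10.5, 3.52, 3.43 and 4.58 in SKO 1 to 4, against 4.98, 4.58, 4.2 and 1.59 in CTL 1 to 4. Of all 21 pairs of a pro-apoptotic and a protective member, SKO was above CTL in every library for 11, and the groups overlapped for 10. All 7 pairs with Bcl2 were among those 10. The 21 pairs reuse the same 10 genes, so they are not separate results. No share over pairs of other genes was computed, so these counts are descriptions.

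**Figure D3:**
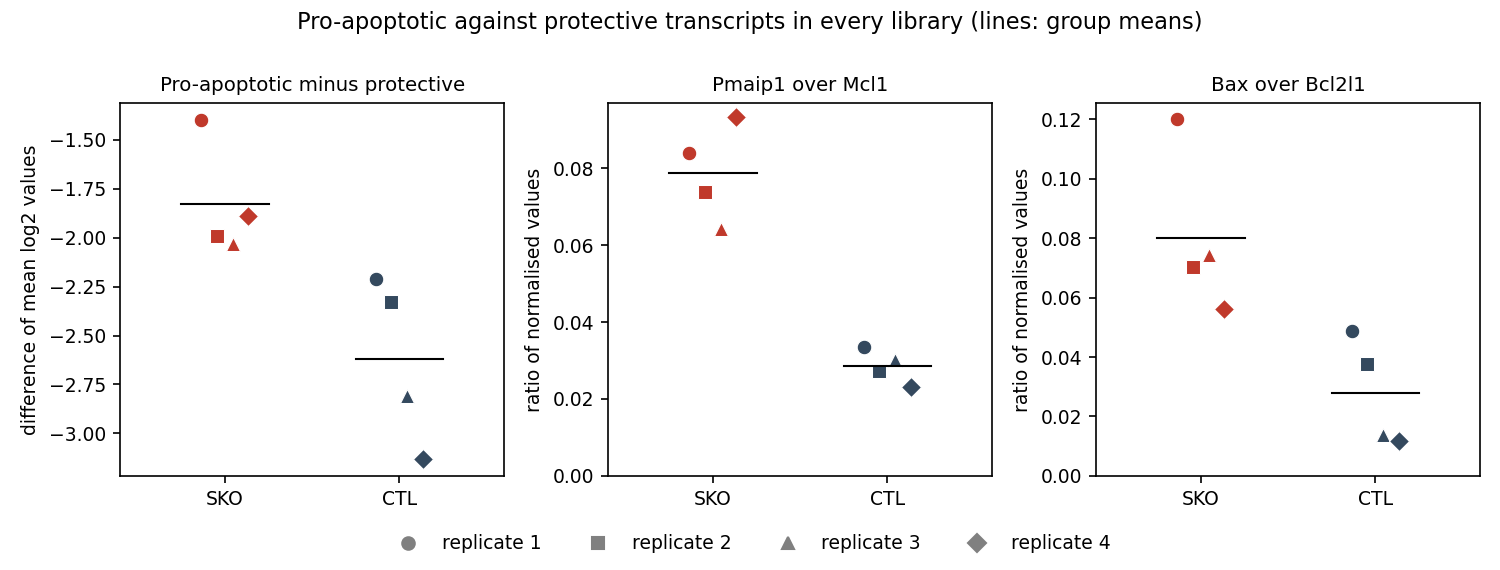
Mean log2 value of pro-apoptotic minus protective members (left panel), ratio of Pmaip1 over Mcl1 (middle) and of Bax over Bcl2l1 (right) in every library, SKO left and CTL right, with lines at group means. The groups do not overlap in any of the 3 panels, and SKO is higher in each.

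To show the sequence upstream of the members, risen or not, promoters from RefSeq were searched on both strands for 4 motifs. Each spans 250 bases before to 50 after a start (GRCm38.p6). 9 of the 10 members matched, with 14 promoters; Pmaip1 did not. The p53 half-site, known by that name, occurred in 1 of the 14, the Bax promoter, and in 8.36% of all 32851 promoters. The FOXO motif TGTTTAC occurred in 2 of the 14, 1 each of Bcl2l11 and Bbc3, and in 3.65% of all promoters. Of these genes Bbc3 was not called as risen. The promoters of the risen members Bid and Bok held none of the 4 motifs. STAT (TTCNNNGAA) and CRE (TGACGTCA) motifs occurred in 0 of the 14 and in 8.3% and 1.79% of all promoters. Each promoter shown holds 1 match, so no 2 matches overlap. The p53 half-site of Bax begins at position -201 from the start and is in capitals in the first line, and the FOXO motif of Bcl2l11 begins at -227 and is in capitals in the second, where it reads on the opposite strand. A match describes letters in the window and is not a bound site.
Bax (chr7:45466849-45467148, - strand): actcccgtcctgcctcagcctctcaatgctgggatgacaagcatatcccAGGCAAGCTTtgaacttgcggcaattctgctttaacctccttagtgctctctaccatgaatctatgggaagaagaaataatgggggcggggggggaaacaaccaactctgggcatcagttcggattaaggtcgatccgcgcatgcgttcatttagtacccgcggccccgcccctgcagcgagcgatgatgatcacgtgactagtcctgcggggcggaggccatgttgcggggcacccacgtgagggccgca
Bcl2l11 (chr2:128125788-128126087, + strand): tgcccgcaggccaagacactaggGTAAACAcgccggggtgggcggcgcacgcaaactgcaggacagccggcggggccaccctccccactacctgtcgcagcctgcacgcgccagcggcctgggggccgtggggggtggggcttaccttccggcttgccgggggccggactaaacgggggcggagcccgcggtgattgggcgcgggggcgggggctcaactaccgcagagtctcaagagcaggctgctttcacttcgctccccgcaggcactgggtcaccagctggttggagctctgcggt

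The rest of the pathway was read from 6 lists holding 83 tested genes, of which 12 (14.5%) rose and 2 (2.41%) fell, against 11.9% and 7.93% of all genes tested. The risen share was thus near that of all genes, and the counts of each list below are descriptions. Among 12 other BCL2 family genes 1 rose and 0 fell, with a median log2 fold change of 0.17 (5 higher and 0 lower at an unadjusted limma p below 0.05). The riser was protective: Bcl2l2, encoding BCL-W, had 3742, 3538, 4332 and 3176 in SKO 1 to 4, against 2343, 2138, 1766 and 1669 in CTL 1 to 4. Its groups were well apart, with a log2 fold change of 0.90 and a limma adjusted p of 0.0129 (0.0569 without SKO 3). Of its exon bases, 13.3% overlap Gm20521, a same-strand model that is not in the table analysed here. The BH3-only genes Hrk, Bmf and Bik, named after their values were seen, had log2 fold changes of 1.38, 0.87 and 0.84 and did not pass (limma adjusted p = 0.0669, 0.0686 and 0.0622). Bad, from the same list and also named after its values were seen, went the other way at -0.25 (limma adjusted p = 0.349). Hrk was sparse, with means of 83.8 ± 31.4 in SKO and 30.3 ± 15.2 in CTL (SD, n = 4 each).

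Among genes of the outer membrane and of released proteins, 4 of 15 rose and 0 fell (1 lower at an unadjusted limma p below 0.05), with a median log2 fold change of 0.02. Cycs, somatic cytochrome c, had 6462, 5661, 7055 and 5930 in SKO 1 to 4, against 3810, 3288, 2525 and 2531 in CTL 1 to 4. It rose 2.09-fold with no overlap (limma adjusted p = 0.0123; 0.0569 without SKO 3), though processed copies of this gene in the genome could share its reads. Its testis-specific counterpart Cyct, named after its values were seen, had means of 3850 ± 848 in SKO and 4053 ± 466 in CTL (SD, n = 4 each; limma adjusted p = 0.743). Aifm1, the apoptosis-inducing factor of mitochondria, rose 2.05-fold (limma adjusted p = 0.0192; 0.0509, 0.0564 and 0.0673 without SKO 1, 2 and 3). The other risers were the outer membrane genes Vdac1 and Mtch1 (1.63-fold and 1.53-fold).

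Among 14 genes of caspases and the apoptosome 3 rose and 0 fell, with a median log2 fold change of 0.52 (7 higher and 0 lower at an unadjusted limma p below 0.05). Casp6, an executioner caspase, had means of 2101 ± 343 in SKO and 1030 ± 221 in CTL (SD, n = 4 each; limma adjusted p = 0.0141, and 0.0576 without SKO 3). Casp8, which cleaves BID, had means of 1009 ± 67.7 in SKO and 541 ± 153 in CTL (SD, n = 4 each; limma adjusted p = 0.0182). Its call was lost without SKO 2, SKO 3 or CTL 3 (limma adjusted p = 0.0513, 0.0616 and 0.0578) and without CTL 1 and CTL 2 together (0.0589). Apaf1, the scaffold that cytochrome c activates, and Casp9, the caspase it recruits, had log2 fold changes of 0.50 and 0.27 and did not pass (limma adjusted p = 0.0929 and 0.22). Of 7 caspase inhibitor genes 0 rose (also 0 at an unadjusted limma p below 0.05) and 1 fell. Their median log2 fold change was 0.40, so the list as a whole was not lower in SKO. The 1 that fell was Birc5, survivin, a protein of dividing cells. Birc5 had means of 3956 ± 324 in SKO and 5564 ± 470 in CTL (SD, n = 4 each, limma adjusted p = 0.0272). It did not pass without SKO 1, 2 or 3 or CTL 3 (limma adjusted p = 0.0746, 0.0759, 0.0716 and 0.0625) or with library totals (0.22).

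Upstream, 4 of 21 regulators of BCL2 family transcription rose and 1 fell, with a median log2 fold change of 0.03. At an unadjusted limma p below 0.05, 5 were higher and 6 were lower. Trp53, the gene of p53, had 4576, 3620, 3889 and 3524 in SKO 1 to 4, against 2661, 2166, 1770 and 1242 in CTL 1 to 4. All SKO libraries lay above all CTL libraries, a 2.05-fold rise (limma adjusted p = 0.0172; 0.0504 without SKO 1, 0.0622 without SKO 3 and 0.0532 without CTL 3). Chek2, a kinase that activates p53 after DNA breaks, rose 1.88-fold (limma adjusted p = 0.0382). That call was lost without SKO 1, 2 or 3 (limma adjusted p = 0.0882, 0.0915 and 0.109) and without CTL 3 or 4 (0.107 and 0.0709), and within the libraries with less 18S (0.0521). Kat5, an acetyltransferase of p53, fell to 6817 ± 929 in SKO, against 11182 ± 2329 in CTL (SD, n = 4 each; limma adjusted p = 0.0261). An overlap with Rnaseh2c covers 12.1% of the exonic sequence of Kat5. The call of Kat5 was lost without SKO 1, 2 or 3 or CTL 3 (limma adjusted p = 0.06, 0.0739, 0.0843 and 0.0694) and with library totals (0.0632). The other risers were E2f1 and Trp53bp2 (1.67-fold and 1.41-fold). Mdm2, the ubiquitin ligase of p53, named after its values were seen, had means of 19939 ± 1837 in SKO and 25479 ± 3010 in CTL (SD, n = 4 each; limma adjusted p = 0.0929). Of 14 genes for proteins that bind or degrade BCL2 family members 0 rose and 0 fell (also 0 at an unadjusted limma p below 0.05). The most abundant, Ywhae, a 14-3-3 protein gene, had means of 38673 ± 5789 in SKO and 38171 ± 7700 in CTL (SD, n = 4 each; limma adjusted p = 0.932).

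Markers of several testis cell types moved with these genes. Of 24 Sertoli cell markers 18 rose and 0 fell (median log2 fold change 0.98; 0 lower at an unadjusted limma p below 0.05). Their summed value was 284788 to 528878 in SKO and 138037 to 272966 in CTL libraries, and none was at 0, the lowest single value being 161. Of these 24 markers, 6 had a larger log2 fold change than Pmaip1, 9 than Bax, 12 than Bid, 17 than Bok and 24 than Bcl2l11. Of 11 peritubular myoid markers 7 rose (median 0.68), of 15 macrophage and immune markers 5 rose (median 0.67), of 12 Leydig markers 3 rose (median 0.35) and of 10 endothelial markers 2 rose (median 0.10). 0 fell in each of these lists by limma, and at an unadjusted p below 0.05 only 2 Leydig markers were lower. The macrophage and immune markers did not move evenly, with log2 fold changes from -0.02 to 1.53. Those that rose, named after their values were seen, were C1qc, H2-Aa, H2-Ab1, H2-Eb1 and Cd74. Of 15 spermatogonial markers 4 rose and 1 fell (median 0.45). Of 16 markers of pachytene and later spermatocytes 0 rose and 6 fell (median -0.55), with summed values of 643328 to 754728 in SKO and 860066 to 1105705 in CTL libraries. Of 16 spermatid markers 0 rose and 0 fell, also 0 at an unadjusted limma p below 0.05. Their summed value spread widely within each group, from 184708 to 653572 in SKO and from 110927 to 801018 in CTL libraries. A difference between the groups could therefore be missed in this list. Of 5 red blood cell markers 0 rose and 1 fell. Of 10 heart muscle markers listed, Actc1, Nppa, Nppb and Myl2 were not in the table analysed here. Of the 6 tested 2 rose, the troponin genes Tnnt2 and Tnni3, named after their values were seen. The summed value of the 6 was 4377 to 6882 in SKO and 2281 to 2897 in CTL libraries. Tnni3 alone had means of 4041 ± 827 in SKO and 1391 ± 315 in CTL (SD, n = 4 each). The part of these cell types in the changes of the BCL2 family genes was not tested.

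**Figure D4:**
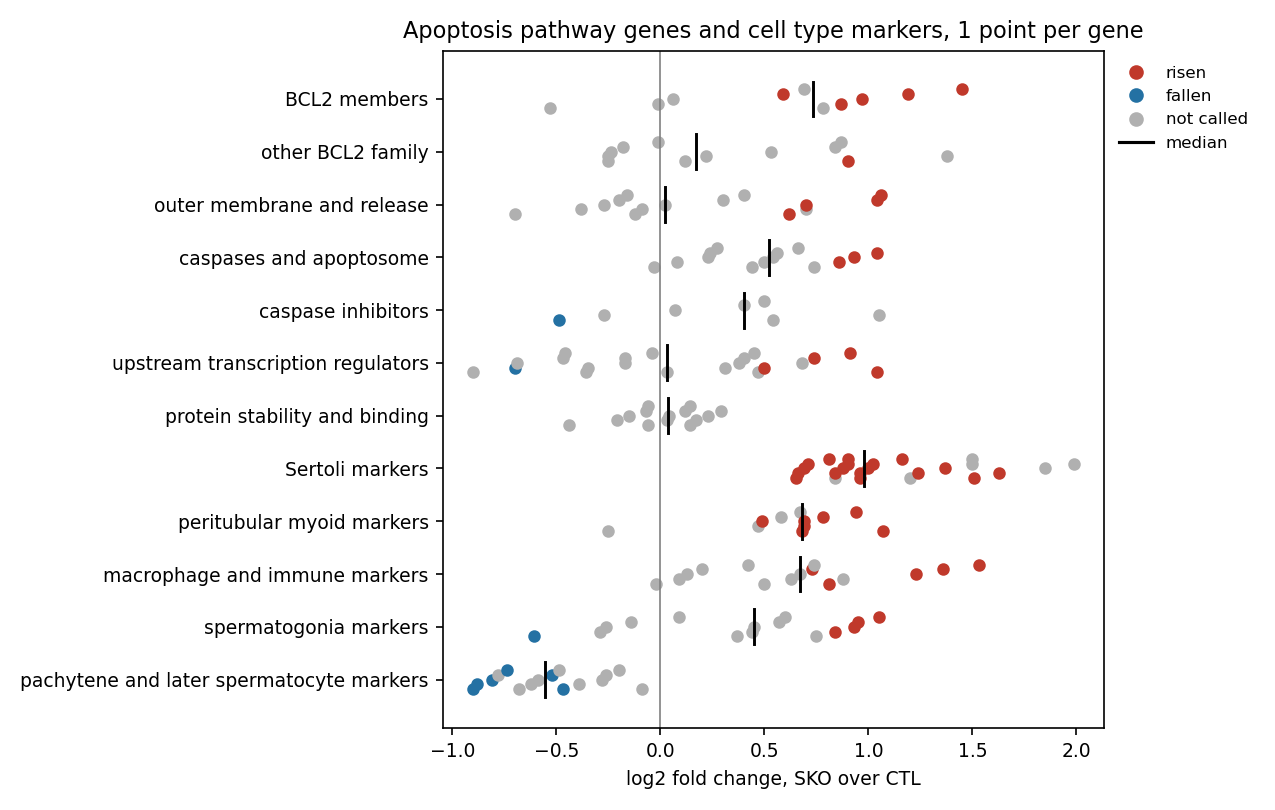
Log2 fold change, SKO over CTL (x axis), of each gene in the BCL2 family, 6 apoptosis lists and 5 cell type marker lists (1 point per gene, black line at the list median). Risen genes are red, fallen genes blue and genes that did not pass grey: the BCL2 members have a median of 0.73, Sertoli markers 0.98 and spermatocyte markers -0.55.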

How the data were processed

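RNA-seq was made from 8 libraries of mouse testis, grouped and numbered by their titles. TRIzol extraction and a NEBNext Ultra RNA kit, which keeps no strand, were used per the labels' protocols. Per the submitters' processing notes, featureCounts 1.5.0-p3, HISAT2 2.0.5, fastp and CASAVA were used, with build mm10. The treatment of overlapping or multimapped reads is not known here. The authors deposited a score per gene and library, in which counts of reads were scaled by library and rounded. This was read from the values: 100.0% of low values were multiples of the factor in the 6 libraries with a factor above 1 (43.0% to 68.0% by chance). The factors of CTL 1 and CTL 2, below 1, are less certain, since 100.0% of low values would be such multiples by chance.

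The filter required 25 or more in 4 or more libraries. TMM-scaled values (trims of 30% and 5%) entered limma 3.58.1 (R 4.3.3) as log2(value + 5), with a variance trend and no covariate, over all 8 libraries. Fold changes are on that scale, which understates those of low genes. Tests were two-sided, with a threshold of 0.05. The fit was also run on simulated data. That simulation had independent libraries and far fewer changed genes than were called here, so it does not show how the test behaves on these data. Libraries above 0.5% 18S formed the set with more 18S, a limit set after the values were seen. No 2 libraries were duplicates. Exon lengths, overlaps and coordinates came from GENCODE M21 (GRCm38, the assembly that mm10 names). Sequence of Pmaip1 and some single genes of the pathway lists are not reported here.

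The named genes were all 10 members and, from each pathway list, the 2 risen and 2 fallen genes that changed most (where so many passed), or its most abundant gene if none did; others are marked where they were chosen after their values were seen, as were Vdac1, Mtch1, Apaf1, Casp9, E2f1 and Trp53bp2. The members and lists were chosen with earlier results of these data known. Nr5a1 is in both the Sertoli and the Leydig list, and Cyct in both a pathway and the spermatocyte list. Alternatives were other scalings, filters, added constants and variance models, a replicate block, left-out libraries, the 18S sets and a length and GC correction.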

Additional observations from a re-analysis of the deposited data

Results flagged for a closer look

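2 of 42 groups of 4 values held a library far from the other 3, beyond Dixon's 95% limit, and chance alone gives about 1 in 20. Bok in SKO 4 had a normalised value of 781, against 1299 to 1376 in SKO 1 to 3. Chek2 in SKO 4 had 385, against 466 to 482 in SKO 1 to 3. SKO 4 is the SKO library with more 18S and the fewest reads, and the part of either in these values was not tested.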

How the results depend on the processing

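Calls depended on single libraries and on the scaling. Over the fits that leave out 1 library, the members risen ranged from 0 to 5 and fallen were 0, pathway genes risen from 0 to 15 and fallen from 0 to 3, and all genes risen from 0 to 2455 and fallen from 0 to 1526; the pro-apoptotic minus protective difference ranged from 0.62 to 0.93, and was 0.46 and 1.08 within the libraries with less and more 18S and 1.14 without the 2 most deeply sequenced libraries. Median-ratio factors gave 4 fallen pathway genes and 1657 fallen genes in all. Bbc3 passed as a sixth risen member with library totals, without the 2 most deeply sequenced libraries and with the length and GC correction. Library totals gave 34 risen and 0 fallen pathway genes, and 4885 risen and 456 fallen genes in all. Without the 2 most deeply sequenced libraries 1 member (Bcl2l1), 8 pathway genes and 2322 genes in all fell. The length and GC correction, for 16418 genes with both values, gave 1 fallen member (Bcl2l1, limma adjusted p = 0.0476) and 22 risen and 6 fallen pathway genes. With that correction 2807 genes in all rose and 1851 fell. Within the libraries with less 18S, 25 pathway genes rose and 7 fell, and 3194 genes in all rose and 2283 fell. Within those with more, 0 members rose (5 of 10 at an unadjusted limma p below 0.05), 0 pathway genes rose and 1 fell, and 43 genes in all rose and 252 fell. The causes were not tested.

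Samples with the same replicate number had correlated deviations of 0.67, 0.01, 0.08 and 0.23 for numbers 1 to 4. No SKO library correlated best with its own number, so equal numbers were not taken as pairs. Deviations were still shared across the groups: SKO 1 correlated 0.67 and 0.71 with CTL 1 and CTL 2. It correlated -0.38 and -0.72 with CTL 3 and CTL 4. The correlations of SKO 2 to 4 lay between -0.37 and 0.35. What these libraries share was not tested. The replicate block gave 4 risen members (Bcl2l11 lost, limma adjusted p = 0.0591), 1 fallen (Bcl2l1, limma adjusted p = 0.0487) and 4 fallen pathway genes. With the block 2162 genes in all rose and 1701 fell.

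The 5 risen members kept their sign in all 22 alternatives. Genes near 0 changed sign: Mcl1 (-0.07 to 0.07 over left-out libraries) to 0.04 with upper quartile factors, 0.28 with library totals, 0.07 within the libraries with less 18S and 0.01 and 0.07 without SKO 1 and SKO 4; Bak1 (-0.16 to 0.13 over left-out libraries) to -0.16 within the libraries with less 18S and without CTL 4 and to -0.03 with the length and GC correction; Ywhae (-0.12 to 0.14 over left-out libraries) to -0.04 with median-ratio factors, -0.12 within the libraries with less 18S, -0.04 within those with more, and -0.12 to -0.01 without SKO 1, SKO 2, CTL 3 or CTL 4. Of the 10 members, Bcl2 and Bbc3 rest on the fewest reads.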
